A study of Rattus norvegicus with 20 samples.

Results

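Wnt ligands, their receptors and the proteins that tune them were followed across the ovaries of 20 young rats. Their mothers had eaten food with brominated flame retardants or, for the controls, without them. The genes were chosen by a rule on names, though with earlier results of these data known. They are those called Wnt, Fzd, Sfrp, Dkk, Rspo or Dvl with a number, and 15 named pathway genes such as Lrp5, Axin2 and Ctnnb1. Of the 59 such genes in a table of rat genes, 50 had a probe on the array, out of 15705 named genes with one. The other 9 (Dvl2, Fzd7, Rspo4, Tcf7, Tcf7l2, Wif1, Wnt2, Wnt3a and Znrf3) were not analysed here. A gene was tested where its brightest probe lay well above background, by the scanner software's own flag, on at least 4 of the 20 arrays. That left 39 of the 50, and 31 of these were well above background on all 20 arrays.

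Dams of the Sprague Dawley strain received the mixture in their food from before mating until their pups were weaned at 21 days of age. It was made of 3.3% hexabromocyclododecane and, for the rest, polybrominated diphenyl ethers: 44.2% BDE-209 and the commercial blends DE-71 (52.1%) and DE-79 (0.4%). Apart from the controls at 0, the intended dose to the dam was 0.06 mg/kg/day, 20 or 60, from food with 0.75, 250 or 750 mg/kg. The groups were 5, 4, 5 and 6 daughters, each from a separate litter, killed at 46 days, with 1 animal per array and RNA from the entire ovary. The control dams ate the diet without the mixture, and no animal was measured while the feeding lasted.

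Wnt proteins are secreted, lipid-modified signals that bind a Frizzled receptor together with the co-receptors Lrp5 or Lrp6. In the best known branch, the signal stops a cytoplasmic complex built on Axin from destroying beta-catenin, which then enters the nucleus and works with Lef and Tcf factors on genes such as Axin2. In the ovary, Wnt4 and R-spondin 1 are known for setting the female path of the embryonic gonad, and Wnt4, Frizzled receptors and Sfrp4 are known from granulosa and luteal cells of the adult rodent ovary.

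All levels below are log2 of the background-corrected signal minus the 75th percentile of the same array, so 0 means as bright as that percentile. Levels are compared between arrays for 1 probe and never between genes, because probes differ in brightness for the same amount of RNA. In RNA from whole ovaries, fewer cells of a type and less RNA per cell cannot be told apart. The 75th percentile lay between 1158 and 1737 on the arrays, with 74.8% to 83.4% of spots well above background. Star and Cyp11a1 of steroid-making cells, Inha and Amh of granulosa cells and Zp3 and Gdf9 of oocytes were well above background on 20 of 20 arrays. Each of the 3 slides held all 4 doses. 4 arrays (control replicates 2 and 4, 20 mg/kg/day replicate 5 and 60 mg/kg/day replicate 6) stood high for markers of the oviduct, the tube that adjoins the ovary: Foxj1, the master gene of motile cilia, lay between -3.03 and -1.76 there and between -8.39 and -4.28 on the other 16. Another marker, Tekt1, overlapped: it lay between -4.22 and -3.79 on the 4 arrays and at -4.08 on 60 mg/kg/day replicate 2. Akr1c18, which inactivates progesterone as a corpus luteum regresses, lay at -4.23 on control replicate 5 and -2.48 on 0.06 mg/kg/day replicate 2, against 5.28 to 7.05 elsewhere. Cyp17a1, which theca cells use to make androgens, lay between -3.52 and -2.62 on 5 arrays (control replicate 3, 0.06 mg/kg/day replicate 1, 20 mg/kg/day replicates 2 and 5, and 60 mg/kg/day replicate 5), with the rest between 1.71 and 3.86. The labels give no luteal or cycle stage, so these arrays are not a group of the study; their values are described without a mean or a test.

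The stretches just upstream of 5 members were read from RefSeq (rat assembly GRCr8), each the 250 bases before the gene's start on its own strand, 5′ to 3′. Axin2 (chr10:94398535-94398784, plus strand) is shown as the pathway's own target and negative regulator. Wnt2b (chr2:195156946-195157195, minus strand) and Wnt6 (chr9:83778302-83778551, plus strand) are shown because they stood apart in opposite directions on the arrays with low Akr1c18. Wnt4 (chr5:154797200-154797449, plus strand) and Fzd1 (chr4:30264824-30265073, plus strand) are shown because both followed the stroma score described below. Capitals mark the Lef/Tcf motif CTTTGAT.
Axin2: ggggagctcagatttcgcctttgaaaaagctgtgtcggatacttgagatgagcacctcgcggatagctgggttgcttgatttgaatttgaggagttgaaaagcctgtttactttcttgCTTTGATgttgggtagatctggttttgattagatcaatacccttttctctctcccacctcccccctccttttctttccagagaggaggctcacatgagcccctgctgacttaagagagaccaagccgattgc
Wnt2b: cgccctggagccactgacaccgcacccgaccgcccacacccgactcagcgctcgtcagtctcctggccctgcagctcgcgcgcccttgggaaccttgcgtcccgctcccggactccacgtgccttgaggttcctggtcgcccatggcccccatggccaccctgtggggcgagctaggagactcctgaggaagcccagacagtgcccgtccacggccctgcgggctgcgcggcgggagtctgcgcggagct
Wnt6: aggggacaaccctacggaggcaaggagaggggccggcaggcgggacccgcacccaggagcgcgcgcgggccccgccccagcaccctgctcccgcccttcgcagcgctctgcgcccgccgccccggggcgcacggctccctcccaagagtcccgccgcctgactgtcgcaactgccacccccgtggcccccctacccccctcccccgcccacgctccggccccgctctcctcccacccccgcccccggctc
Wnt4: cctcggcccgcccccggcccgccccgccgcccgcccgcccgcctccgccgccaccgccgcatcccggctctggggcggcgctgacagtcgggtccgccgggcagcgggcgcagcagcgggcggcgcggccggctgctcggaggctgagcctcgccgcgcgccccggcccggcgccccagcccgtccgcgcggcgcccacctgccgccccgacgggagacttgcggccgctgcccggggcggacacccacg
Fzd1: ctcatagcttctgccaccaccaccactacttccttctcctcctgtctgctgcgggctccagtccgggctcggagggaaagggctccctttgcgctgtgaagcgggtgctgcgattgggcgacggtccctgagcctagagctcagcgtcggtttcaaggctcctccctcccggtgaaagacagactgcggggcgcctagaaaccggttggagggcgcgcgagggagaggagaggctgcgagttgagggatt
The table held such a stretch for 34 of the 50 members. CTTTGAT, searched on both strands, occurred in 1 of the 34, Axin2, where it begins 132 bases before the start, and in 3.18% of all 27457 promoters of that length. The steroidogenic factor 1 motif AAGGTCA occurred in 1 of the 34, Rnf43, against 3.77% of all promoters. The cyclic AMP response element TGACGTCA occurred in 0 of the 34, against 1.70%. None of these 3 motifs contains another, though the last 2 share the letters GTCA. The shown stretches were rich in G and C except that of Axin2: 86.4% for Wnt4, 79.6% for Wnt6, 71.6% for Wnt2b, 63.6% for Fzd1 and 47.6% for Axin2, where the median was 63.6% over the members and 52.0% over all promoters. The arrays measured RNA only, so no binding at these letters was measured.

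Each dose was set against the controls to see whether exposure before weaning had altered these genes in the later ovary. This found 0 of 39 members at an adjusted p under 0.05 at 0.06, 20 or 60 mg/kg/day (limma, Benjamini-Hochberg over all 23258 probes tested), where the share of all probes called was 0% at each dose. At an unadjusted p under 0.05 limma listed 2 members at 0.06, 1 at 20 and 4 at 60 mg/kg/day, which is 5.13%, 2.56% and 10.3% of the members, against 3.05%, 4.58% and 6.29% of all probes. The median difference over the members was -0.07, 0.02 and -0.10 log2, against -0.03, 0.03 and -0.04 over all probes. The lowest adjusted p among the members was 1.00, 0.929 and 0.782, equal in each case to the lowest over the whole array. The comparisons of 20 with 0.06, 60 with 0.06 and 60 with 20 mg/kg/day, the trend over dose order and the joint test of the 3 doses likewise called 0 members and 0% of all probes. At an unadjusted p under 0.05 the 3 comparisons and the trend listed 1, 1, 4 and 2 members. These are 2.56%, 2.56%, 10.3% and 5.13% of the members, against 2.83%, 2.43%, 5.68% and 5.75% of all probes. The joint test listed 1 of 39 members, against 3.17% of all probes. The contrasts with 0 mg/kg/day share their 5 control arrays, so they are not independent of each other.

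**Figure D1:**
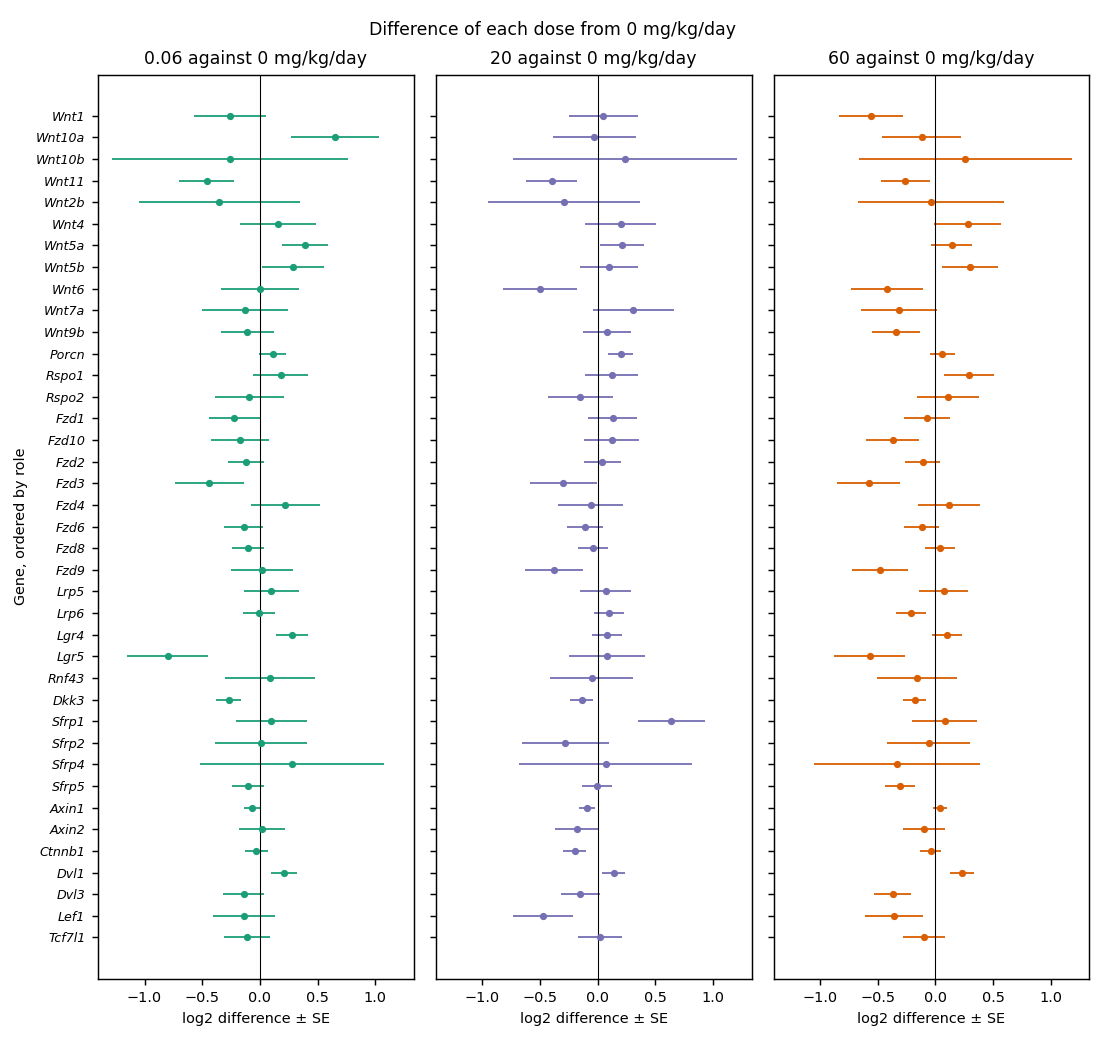
Difference of each dose from 0 mg/kg/day in log2 (x axis; point, limma estimate; bar, SE) for the 39 tested members (y axis, ordered by role from ligands to nuclear factors), 1 panel per dose. The widest bars are those of Wnt10b, Wnt2b and Sfrp4, the point farthest from 0 is Lgr5 at 0.06 mg/kg/day (-0.80), and 0 of 39 genes passed the adjusted threshold in any panel.

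Among the ligands, 11 of 17 on the array were tested. Wnt3, Wnt8a and Wnt8b were well above background on 0 arrays, Wnt7b on 1, Wnt9a on 2 and Wnt16 on 2, and none of these was tested. Both Wnt16 arrays were controls, replicates 1 and 4, at -5.53 and -6.54; the other 18 arrays lay between -9.51 and -7.38, all not well above background. Wnt9a, a ligand of the canonical branch, was above background on 1 control array and 1 at 0.06 mg/kg/day, with a range of -8.80 to -6.50 over the 20.

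Wnt10b, a canonical ligand known for holding back fat cell formation, varied more between animals than any other member well above background on all 20 arrays, with a residual SD of 1.62 log2 within dose groups. The controls lay at -1.20, -2.39, -1.35, -1.68 and -6.20 (replicates 1 to 5). At 0.06 mg/kg/day the values were -0.65, -6.18, -2.82 and -1.66 (replicates 1, 2, 3 and 5). Those at 20 mg/kg/day were -3.41, -1.17, -2.51, -3.16 and -1.34, and at 60 mg/kg/day they ran from -3.34 through a median of -2.26 to -1.12. The doses overlapped, and only the -6.20 and the -6.18 stood away from the rest. Those are the 2 arrays on which Akr1c18 was below 0, and the nearest other array lay 2.77 log2 above them.

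Wnt2b, another canonical ligand, was low on the same 2 arrays. Its control values were 1.60, 0.61, 0.16, 0.86 and -2.40, and those at 0.06 mg/kg/day 0.59, -2.51, 0.00 and 1.15. It lay at -0.75, -0.10, -0.42, 0.47 and 0.18 at 20 mg/kg/day and at the highest dose between -0.65 and 0.65 with a median of 0.30. The gap between the 2 low arrays and the lowest of the other 18 was 1.65 log2, while the 4 doses otherwise overlapped.

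Wnt6, a ligand made by many epithelia, went the other way on these arrays. Control values were -3.22, -3.34, -3.04, -3.07 and -1.31, and at 0.06 mg/kg/day -2.61, -2.07, -3.46 and -3.04. The values at 20 mg/kg/day were -3.52, -3.19, -3.10, -3.04 and -3.62, and at 60 mg/kg/day they ran from -3.55 through -3.31 to -2.86. The 2 arrays with low Akr1c18 were the 2 highest, 0.54 log2 clear of the next. Wnt6 was among the 8 members of smallest p at 20 mg/kg/day, at -0.50 ± 0.32 log2 (SE, n = 5 and 5; limma adjusted p = 0.929); without control replicate 5 the difference was -0.13.

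Wnt5a and Wnt5b, ligands best known for signalling without beta-catenin, completed the members that lay wholly outside the other 18 on the arrays with low Akr1c18. Wnt5a lay at -2.31 on control replicate 5 and -1.99 on 0.06 mg/kg/day replicate 2, above the -3.41 to -2.46 of the others. Wnt5b lay at -2.49 and -2.62, below the -2.36 to -1.09 of the others, by gaps of 0.14 log2 for the first and 0.13 for the second gene. In all, 5 of 39 members (12.8%) had both arrays outside the range of the other 18, against 10.7% of all probes, so the share was near that of the array as a whole. Of the 23258 probes, 20 had a gap on the low side at least as large as that of Wnt10b, counting it, 36 one as large as that of Wnt2b and 543 one as large as that of Wnt5b. On the high side 142 had a gap as large as that of Wnt6 and 607 one as large as that of Wnt5a. These 5 genes were picked out after their values were seen.

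**Figure D2:**
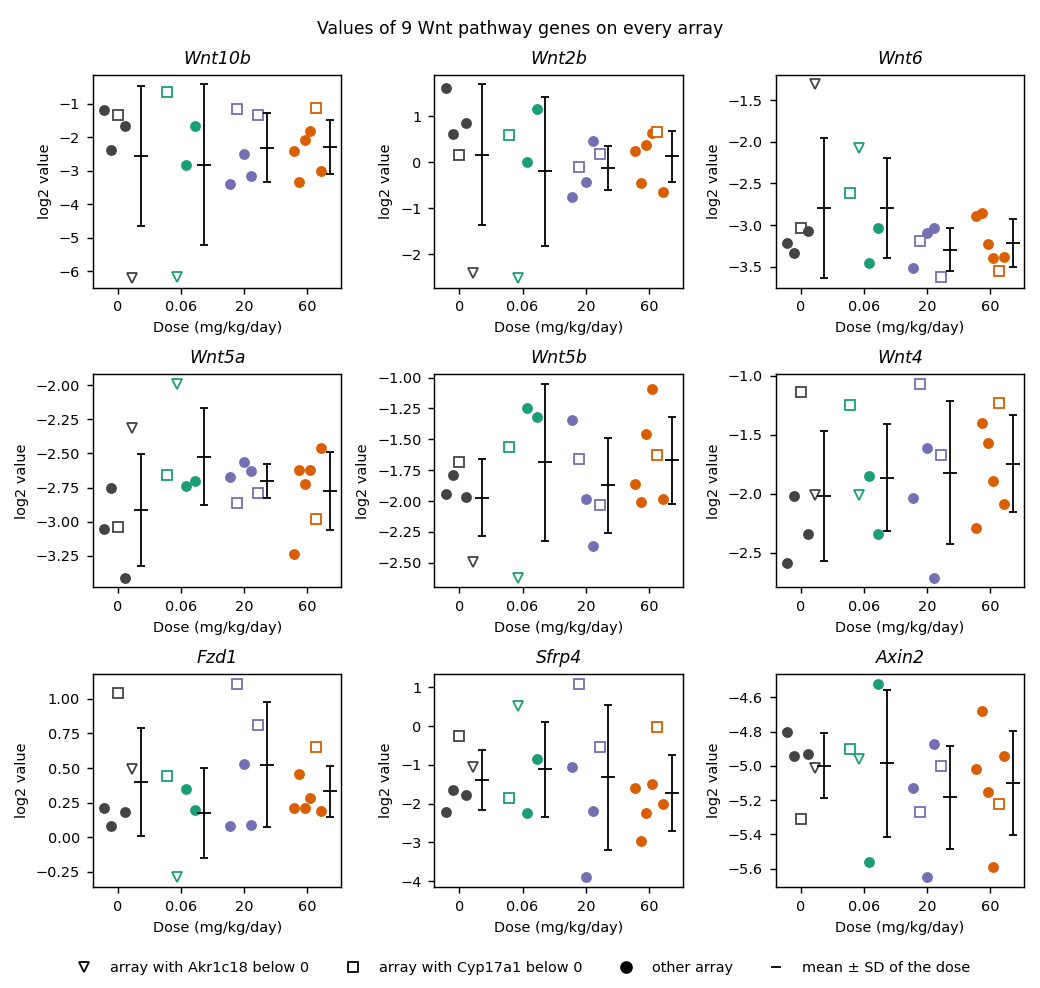
Levels (y axis, log2 of signal minus the array's 75th percentile) of 9 members on each of the 20 arrays by dose (x axis, mg/kg/day, not to scale); bars give the mean ± SD of the 5, 4, 5 and 6 animals, triangles the 2 arrays with Akr1c18 below 0 and squares the 5 with Cyp17a1 below 0. Wnt10b and Wnt2b were lowest and Wnt6 highest at the triangles, Wnt4 and Fzd1 were high at most squares, and the doses overlapped in every panel.

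Wnt4, the ligand of ovarian development, showed another pattern. Its controls lay at -2.59, -2.02, -1.14, -2.34 and -2.01, and the animals at 0.06 mg/kg/day at -1.25, -2.01, -1.85 and -2.34. At 20 mg/kg/day the values were -2.04, -1.07, -1.61, -2.71 and -1.67, and at 60 mg/kg/day they ran from -2.29 through -1.73 to -1.23. The group means were -2.02 ± 0.55, -1.86 ± 0.46, -1.82 ± 0.61 and -1.75 ± 0.41 (SD, n = 5, 4, 5 and 6), all within 1 SD of each other. On the 5 arrays with low Cyp17a1, Wnt4 lay between -1.67 and -1.07, and 4 of these 5 were above every one of the other 15 arrays. Of 23258 probes, 3445 were high on these 5 arrays with an overlap no larger than that of Wnt4, or with none. Overlap here means how far the lowest of the 5 lay below the highest of the others. Standing this high on these arrays was thus not particular to Wnt4. How many probes had 4 of the 5 above all others was not counted. With the lowest of the 5 inside the others' range, Wnt4 was not counted as wholly outside, and neither was any other member: 0 of 39, against 4.97% of all probes.

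Among the other ligands, Wnt11, known for cell movements in the embryo, was in the lists of smallest p at 0.06 and 20 mg/kg/day, at -0.46 ± 0.24 and -0.40 ± 0.22 log2 (SE; limma adjusted p = 1.00 and 0.929). Its controls lay at -2.43, -2.35, -3.40, -2.77 and -2.73, and the values at 20 mg/kg/day between -3.37 and -2.92 were inside that range. Within slides 1, 2 and 3 the difference at 20 mg/kg/day was -0.98, 0.24 and -0.29, so its sign was not shared. Wnt5a stood at 0.39 ± 0.20 at 0.06 mg/kg/day (0.21 without replicate 2, 1 of the arrays with low Akr1c18) and Wnt10a, a ligand of teeth, hair and skin, at 0.65 ± 0.38 (SE; limma adjusted p = 1.00 for both), with every one of its 4 values at this dose (-5.35 to -4.52) inside the control range of -6.18 to -4.42. Wnt1, a ligand of the embryonic brain, stood at -0.56 ± 0.28 at 60 mg/kg/day (SE; limma adjusted p = 0.783), below all controls in 5 of 6 animals; with slide as a block it was -0.35 ± 0.18, and within slides 1 to 3 it was -0.78, -0.46 and 0.22. Porcn, the enzyme of the endoplasmic reticulum that attaches the lipid to Wnt proteins, varied little, from -0.21 to 0.50 over the 20 arrays, and stood at 0.20 ± 0.11 at 20 mg/kg/day (SE; limma adjusted p = 0.929).

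R-spondins are secreted amplifiers: bound to Lgr4 or Lgr5, they keep the ligases Rnf43 and Znrf3 from removing Frizzled receptors. Rspo1 was well above background on 20 arrays, with group means of -3.37 ± 0.47, -3.18 ± 0.22, -3.25 ± 0.47 and -3.08 ± 0.24 (SD, n = 5, 4, 5 and 6) at the 4 rising doses, which overlapped. Rspo2 was above background on 16 arrays, while Rspo3 was above it on 2 and was not tested. The receptor Lgr4 lay between -0.21 and 0.43 in the controls and between 0.19 and 0.59 at 0.06 mg/kg/day, a difference of 0.28 ± 0.14 log2 (SE; limma adjusted p = 1.00).

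Lgr5, known as a marker of stem cells in the gut and of cells of the ovarian surface, had the smallest p of the 39 members in the joint test of the 3 doses (limma adjusted p = 0.951). The controls lay at -6.65, -6.74, -6.70, -5.91 and -5.73, and 0.06 mg/kg/day at -7.36, -7.99, -7.01 and -6.22. The animals at 20 mg/kg/day lay at -6.47, -6.97, -6.16, -5.84 and -5.89, and at 60 mg/kg/day they ran from -7.71 through -6.89 to -6.10. Levels at 0.06 mg/kg/day were thus below all controls in 3 of 4 animals, with a difference of -0.80 ± 0.35 log2 (SE; limma adjusted p = 1.00), and -0.66 ± 0.19 with slide as a block (adjusted p = 0.981); without replicate 2 of this dose it was -0.52. At 60 mg/kg/day the difference was -0.57 ± 0.31 (limma adjusted p = 0.786), and -0.39 ± 0.18 with slide as a block (adjusted p = 0.857). The probe was dim: it was well above background on 5 of 5 control arrays but on 1 of 4 at 0.06, 4 of 5 at 20 and 2 of 6 at 60 mg/kg/day. Under another background correction (normexp) the differences at 0.06 and 60 mg/kg/day turned to 0.04 and 0.01.

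Of 11 receptors and co-receptors 10 were tested, and Fzd5 was above background on 0 arrays. Fzd1, a receptor of the canonical branch, lay at 0.21, 0.08, 1.04, 0.18 and 0.49 in the controls and at 0.44, -0.29, 0.35 and 0.20 at 0.06 mg/kg/day. The next dose gave 0.08, 1.11, 0.53, 0.09 and 0.81, and at 60 mg/kg/day they ran from 0.19 through 0.25 to 0.65. The doses overlapped, and the 5 arrays with low Cyp17a1 lay between 0.44 and 1.11, with 4 of 5 above every other array. Of 23258 probes, 1297 were high on these 5 arrays with an overlap no larger than that of Fzd1, or with none. Fzd3, known from nerve fibre guidance and planar polarity, stood at -0.58 ± 0.27 log2 at 60 mg/kg/day (SE; limma adjusted p = 0.782) and -0.44 ± 0.30 at 0.06 (adjusted p = 1.00). Control replicate 1 lay at -1.65 and the other controls at -2.73, -3.46, -3.29 and -3.34, with the animals at 60 mg/kg/day between -3.83 and -3.25. Without control replicate 1 the difference at 60 mg/kg/day was -0.26. Within slide 1, which holds that array, it was -1.35, and within slides 2 and 3 it was 0.00 and -0.05.

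Fzd9 stood at -0.48 ± 0.24 log2 at 60 mg/kg/day (SE; limma adjusted p = 0.786) and -0.38 ± 0.25 at 20 (adjusted p = 0.929), and had the smallest p of the members for a trend over dose order (adjusted p = 0.839). Its controls ran from -5.95 to -4.98 and the animals at 60 mg/kg/day from -6.58 through -5.89 to -5.41, with 2 of 6 outside the control range on the low side. Under normexp the differences were -0.03 at 60 and -0.06 at 20 mg/kg/day, and without replicate 3 the one at 20 was -0.20; that array (-6.53) and 60 mg/kg/day replicate 6 (-6.58) were not well above background. Fzd4, a receptor of blood vessel growth, was above background on 12 arrays and ranged from -7.60 to -5.97. The co-receptor Lrp5 lay at 0.85, 0.32, 0.82, 0.21 and -0.05 in the controls, 1.17, 0.07, 0.54 and 0.36 at 0.06, 0.58, 0.52, 0.65, 0.11 and 0.66 at 20, and between -0.01 and 1.03 with a median of 0.49 at 60 mg/kg/day. These ranges overlapped, as did those of Fzd2, Fzd6 and Fzd8. Fzd10 was below all controls in 4 of 6 animals at 60 mg/kg/day (-0.37 ± 0.23, SE, limma adjusted p = 0.787). With slide as a block the difference of Fzd10 was -0.24 ± 0.09 (limma adjusted p = 0.857). Lrp6, the partner of Lrp5, had controls within a narrow range, at -0.39, -0.32, -0.39, -0.34 and -0.38, and the exposed animals lay on both sides of it. The values were -0.41, -0.46, -0.63 and 0.00 at 0.06 mg/kg/day, -0.44, -0.63, -0.14, -0.10 and -0.02 at 20, and -0.85 to -0.48 in 5 animals and -0.27 in the sixth at 60 mg/kg/day. The difference at 60 mg/kg/day was -0.21 ± 0.13 log2 (SE; limma adjusted p = 0.786), and within slides 1, 2 and 3 it was -0.41, -0.16 and 0.09. The second probe of Lrp6, well above background on 20 arrays, stood at -0.09 at this dose and correlated with the brightest at only 0.268.

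Secreted inhibitors bind either the ligands, as the Sfrp proteins do, or the co-receptors, as Dkk1, Dkk2 and Dkk4 do. Dkk1 was above background on 3 arrays and Dkk2 and Dkk4 on 0, so none of these 3 was tested. Dkk3, the divergent member of its family, had a level of 1.75, 1.72, 1.64, 1.88 and 1.85 in the controls and of 1.37, 1.77, 1.49 and 1.37 at 0.06 mg/kg/day. The animals at 20 mg/kg/day lay at 1.57, 1.85, 1.41, 1.61 and 1.70, and those at 60 mg/kg/day between 1.42 and 1.75 with a median of 1.62. Below all controls were 3 of 4 animals at 0.06, 3 of 5 at 20 and 4 of 6 at 60 mg/kg/day. The differences were -0.27 ± 0.11, -0.14 ± 0.10 and -0.18 ± 0.10 log2 (SE; limma adjusted p = 1.00, 0.929 and 0.786). At 60 mg/kg/day it was 0.00 within slide 1, -0.08 within slide 2 and -0.43 within slide 3.

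Sfrp1 had the smallest p among the members at 20 mg/kg/day. Control values were -6.06, -5.47, -4.79, -4.99 and -4.95, those at 0.06 mg/kg/day -4.33, -5.77, -5.18 and -5.32, and those at 20 mg/kg/day -5.15, -4.46, -4.79, -4.58 and -4.07. At 60 mg/kg/day they ran from -5.61 through -5.27 to -4.46. Above all controls were 3 of 5 animals at 20 mg/kg/day, a difference of 0.64 ± 0.29 log2 (SE; limma adjusted p = 0.929), and of 0.54 ± 0.27 with slide as a block. Of these 5 animals, replicates 2 and 5 are arrays with low Cyp17a1, and on 4 of the 5 arrays with low Cyp17a1 Sfrp1 was above every other array. Of 23258 probes, 2514 were high on the arrays with low Cyp17a1 with an overlap no larger than that of Sfrp1, or with none. Without the arrays with low Cyp17a1 the difference at 20 mg/kg/day was 0.52 log2 (limma adjusted p = 0.983), and under normexp background correction it was 0.36 (adjusted p = 0.761).

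Sfrp4, a Wnt inhibitor known from luteal cells of rodents, spread over 5.00 log2 across the 20 arrays. The controls lay at -2.22, -1.64, -0.24, -1.78 and -1.06, and the animals at 0.06 mg/kg/day at -1.86, 0.51, -2.23 and -0.85. At 20 mg/kg/day the values were -1.06, 1.10, -3.90, -2.20 and -0.54, the widest spread of any dose, and at 60 mg/kg/day they ran from -2.95 through -1.80 to -0.01. The dose means were -1.39 ± 0.76, -1.11 ± 1.22, -1.32 ± 1.87 and -1.72 ± 0.99 (SD, n = 5, 4, 5 and 6). On the arrays with low Cyp17a1 it ranged from -1.86 to 1.10, across most of the range of the others (-3.90 to 0.51). Sfrp5 stood at -0.31 ± 0.13 log2 at 60 mg/kg/day (SE; limma adjusted p = 0.782), below all controls in 5 of 6 animals, with control values from -4.34 to -3.93 and values at 60 mg/kg/day from -4.59 through -4.50 to -4.11; with slide as a block it was -0.21 ± 0.07, and under normexp background correction -0.04. Its second probe stood at -0.35. Sfrp2, a ligand binder of fibroblasts, was above background on 6 arrays and ranged from -8.39 to -6.18.

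In the cytoplasm, the Dishevelled proteins relay the signal from Frizzled to the Axin complex. Dvl1 was among the 8 members of smallest p in each contrast with 0 mg/kg/day. Its controls lay at 0.59, 0.88, 0.67, 0.86 and 0.83, and the animals at 0.06 mg/kg/day at 1.04, 0.99, 0.97 and 0.92, so all 4 were above all controls. At 20 mg/kg/day the values were 1.08, 0.66, 1.22, 0.77 and 0.82, and at 60 mg/kg/day they ran from 0.88 through 0.98 to 1.18. All 6 animals at 60 mg/kg/day, the lowest of them only just, and 2 of 5 at 20 were above all controls. How many of all probes had as many animals beyond all controls was not counted, for Dvl1 or any other member. Such counts thus cannot be called particular to these genes. The differences were 0.21 ± 0.11, 0.14 ± 0.10 and 0.23 ± 0.10 log2 (SE; limma adjusted p = 1.00, 0.929 and 0.782), against the same 5 control arrays. Within slides 1, 2 and 3 Dvl1 stood at 0.15, 0.39 and 0.17 at 60 mg/kg/day.

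Dvl3 stood at -0.37 ± 0.16 log2 at 60 mg/kg/day (SE; limma adjusted p = 0.782), below all controls in 4 of 6 animals, but it was above background on 16 arrays only and turned to 0.07 under normexp background correction. Ctnnb1, which encodes beta-catenin, lay at -0.54, -0.81, -0.89, -0.90 and -1.11 in the controls and at -0.89, -1.06, -1.02, -1.11 and -1.15 at 20 mg/kg/day, a difference of -0.20 ± 0.10 (SE; limma adjusted p = 0.929) with 2 of 5 animals below all controls. Axin2, the target most often read as output of the beta-catenin branch, was well above background on 20 arrays. Its means were -5.00 ± 0.19, -4.98 ± 0.43, -5.18 ± 0.30 and -5.10 ± 0.31 (SD, n = 5, 4, 5 and 6) at the 4 rising doses, and its values overlapped at all of them (-5.65 to -4.52 over the 20 arrays). Axin1, the scaffold itself, was the steadiest of the tested members, with a residual SD of 0.07. The nuclear partner Lef1 stood at -0.47 ± 0.26 at 20 mg/kg/day (SE; limma adjusted p = 0.929): the controls lay between -4.24 and -3.74 and the animals at this dose at -4.24, -4.56, -4.78, -3.58 and -5.18, 3 of 5 below all controls and 1 of 5 above. Without replicate 5 of this dose the difference was -0.29, and under normexp it was -0.14. The second probe of Lef1, well above background on 9 arrays only, stood at -0.87.

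**Figure D3:**
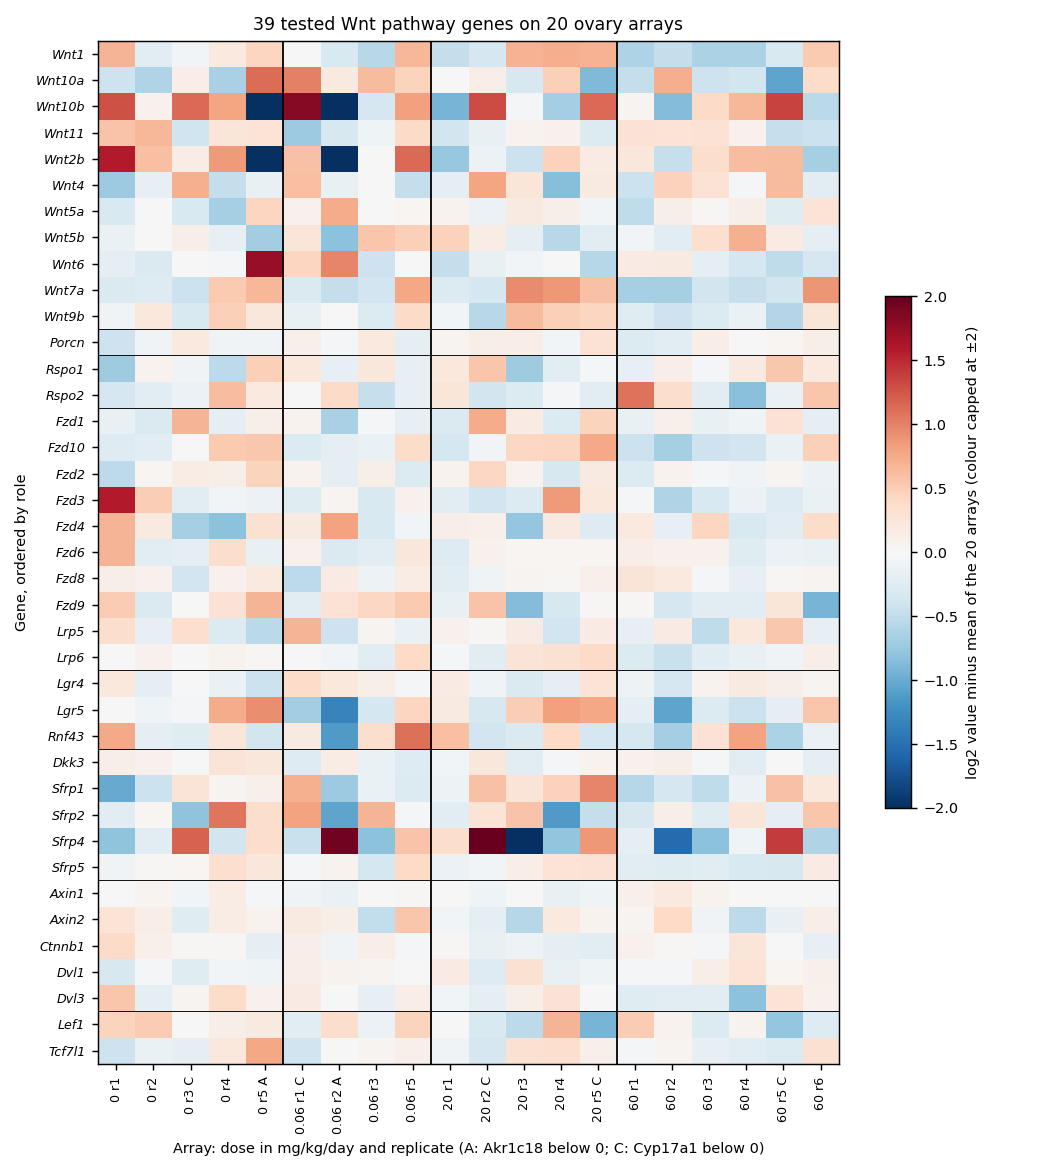
Each of the 39 tested members (rows, ordered by role, horizontal lines between roles) on each of the 20 arrays (columns, by dose in mg/kg/day and replicate; A, Akr1c18 below 0; C, Cyp17a1 below 0), coloured by its log2 level minus its own mean over the arrays, with the colour capped at ±2. Wnt10b and Wnt2b reach the cap in both A columns and Sfrp4 in columns of 20 mg/kg/day, with strong colours of other members elsewhere; no block of columns of 1 dose stands out.

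Because ovaries of this age differ in follicles and corpora lutea, each array was also given 3 scores: the mean of standardised levels of 12 luteal, 11 granulosa and 10 stroma genes, none of them a Wnt pathway gene, scaled to an SD of 1. The slope of each member on each score was fitted with dose in the model (limma). With the luteal score 0 members were called, and 3 of 23258 probes (0.0129%). The 12 luteal genes of the score were themselves among the probes tested, so most of them were not called either. The 2 arrays with low Akr1c18 had luteal scores of -0.70 and 1.83. A count of 0 therefore cannot show that the members are unrelated to luteal tissue. At an unadjusted p under 0.05 there were 4 of 39 members and 2461 of 23258 probes, a like share. Dvl1 had the smallest p there, at 0.12 ± 0.04 log2 per SD (SE; adjusted p = 0.296).

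With the granulosa score 2 members were called (5.13%), against 8.69% of all probes. Sfrp1 fell by 0.39 ± 0.09 log2 per SD of the score (SE, n = 20; limma adjusted p = 0.0166; by 0.19 under normexp, still called) and Lrp5 fell by 0.28 ± 0.07 (adjusted p = 0.0239). With the stroma score, made of collagens and other matrix genes, 3 members were called (7.69%), against 6.15%. Wnt4 rose by 0.45 ± 0.09 (adjusted p = 0.00923), Fzd1 by 0.29 ± 0.07 (adjusted p = 0.0180) and Fzd2, a receptor used by Wnt5a among others, by 0.20 ± 0.05 log2 per SD (adjusted p = 0.0300). Both shares were near those of the whole array.

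The calls changed with the slide and with a few arrays. With slide as a block, Lrp5 was the 1 member called with the granulosa score (-0.34 ± 0.07, adjusted p = 0.0493; 0.267% of all probes), Sfrp1 stood at -0.40 ± 0.09 (adjusted p = 0.0567), and 0 members were called with the stroma score (1.06% of all probes), Wnt4 standing at 0.39 ± 0.10 (adjusted p = 0.0633), Fzd1 at 0.24 ± 0.07 (0.107) and Fzd2 at 0.20 ± 0.06 (0.113). Without the 5 arrays with low Cyp17a1, on which Wnt4, Fzd1 and Sfrp1 were high, limma called 0 members with either score, and without the 4 arrays with high oviduct markers 0 and 1. Leaving out the 2 arrays of most extreme score ended the calls with the granulosa score (Sfrp1 at -0.32, adjusted p = 0.123; Lrp5 at -0.25, 0.141) and left all 3 with the stroma score (Wnt4 at 0.57, adjusted p = 0.0110; Fzd1 at 0.30, 0.0437; Fzd2 at 0.18, 0.0470). Single arrays counted as well: with the granulosa score 0 members were called without 0.06 mg/kg/day replicate 1 or 60 mg/kg/day replicate 5, and 1 without control replicate 3 or 0.06 mg/kg/day replicate 2. With the stroma score 1 was called without control replicate 3, 5 without control replicate 5 or 0.06 mg/kg/day replicate 2, and 6 without control replicate 4 or 60 mg/kg/day replicate 2. For the fits with arrays left out, the share of all probes called was not counted. A change in the members thus cannot be told apart from one over the whole array.

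**Figure D4:**
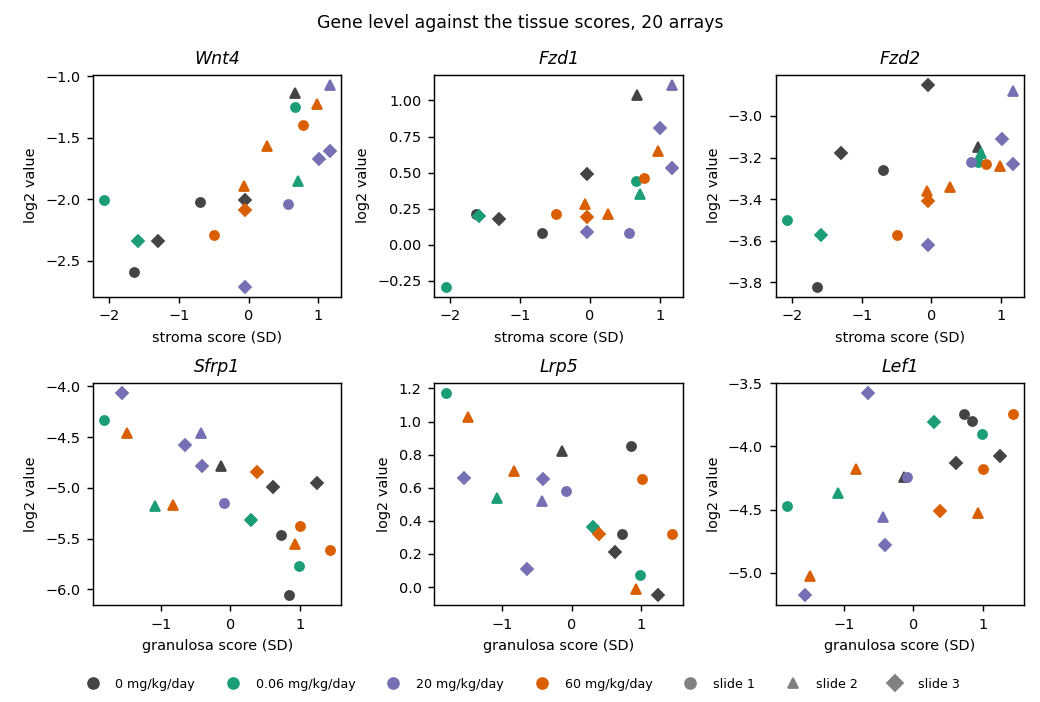
Level (y axis, log2) against the stroma score for Wnt4, Fzd1 and Fzd2 and against the granulosa score for Sfrp1, Lrp5 and Lef1 (x axes, SD), 1 point per array coloured by dose, with circles, triangles and diamonds for slides 1, 2 and 3. Wnt4, Fzd1 and Fzd2 were higher at higher stroma scores and Sfrp1 and Lrp5 lower at higher granulosa scores, while Lef1, at 0.27 ± 0.09 log2 per SD, had an adjusted p of 0.0706 and was not called.

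The slide itself separated more members than dose did. With dose in the fit, 8 of 39 members differed between the slides (20.5%; limma F test, adjusted p under 0.05), against 19.2% of all probes, and all 8 were higher on slide 3 than on slide 1, as were 3975 of the 4454 probes called over the whole array. Wnt7a, a ligand of the oviduct and uterus, lay between -4.26 and -3.84 on the 7 arrays of slide 3 and between -5.45 and -5.04 on the other 13, without overlap, a difference of 1.13 ± 0.09 log2 between slides 3 and 1 (SE; adjusted p = 7.70e-08). Fzd10 differed by 0.81 ± 0.08 (adjusted p = 1.99e-06), Lgr5 by 1.02 ± 0.16 (3.84e-04) and Wnt1 by 0.72 ± 0.16 (0.00230). The other 4, Wnt9b, Sfrp5, Tcf7l1 and Lrp6, differed by 0.30 to 0.49. Slide 3 held 3 of the 4 arrays with high oviduct markers; on control replicate 2 of slide 1, the remaining one, Wnt7a lay at -5.04. It also held 3 of the 5 animals at 20 mg/kg/day and 1 of the 6 at 60. The part of the oviduct markers in the slide differences was not tested beyond these values. Over the 12 tested oviduct markers of 13 on the array, the mean level ran from -4.13 to -1.79 on the control arrays, -4.09 to -3.23 at 0.06, -3.93 to -2.05 at 20 and -3.99 to -2.52 at 60 mg/kg/day. On the 4 arrays with high oviduct markers 0 of 39 members lay wholly outside the other 16, against 0.211% of all probes.

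**Figure D5:**
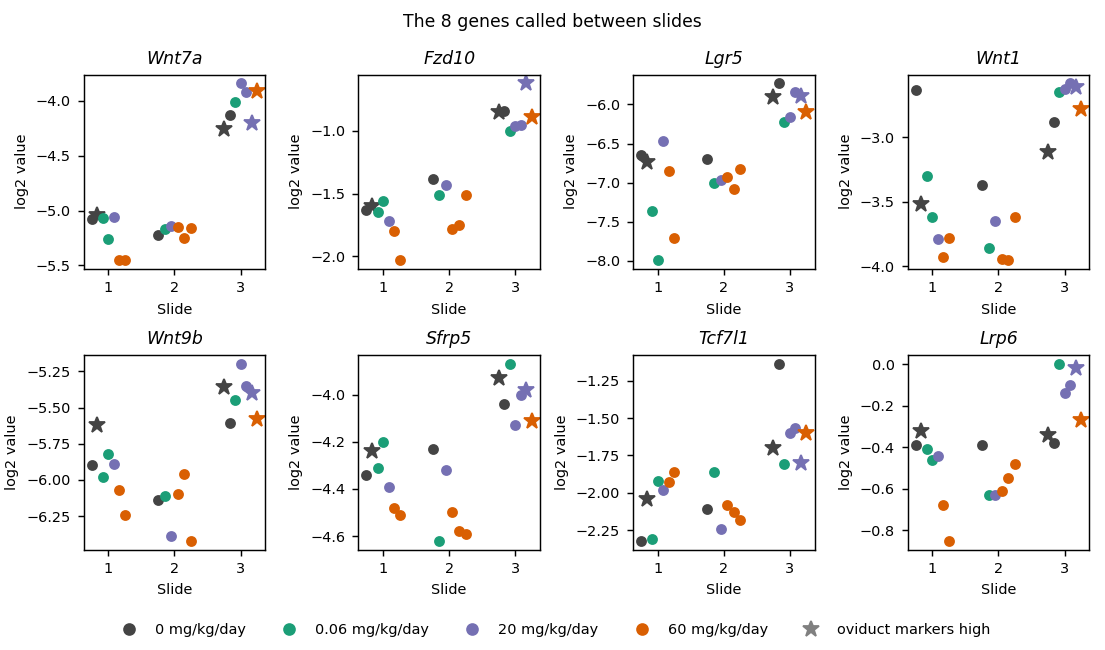
Levels (y axis, log2) of the 8 members called between slides, by slide (x axis), 1 point per array coloured by dose; stars mark the 4 arrays with high oviduct markers. Slide 3 lies above the other slides in each panel, overlapping them for Wnt1 and Lrp6 but not for the other 6, and the stars do not stand apart from the circles of slide 3.

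Pathway genes outside the name rule gave counts of the same kind. Of 14 tested extracellular and receptor genes, 23 of the destruction complex and cytoplasm, 17 nuclear factors, 14 of planar polarity and 19 reported Wnt targets, limma called 0 at each dose in either direction (Nkd1, Notum and Apcdd1 are in 2 of these lists). At an unadjusted p under 0.05 there were 2 such genes at 0.06, 5 at 20 and 4 at 60 mg/kg/day over the 5 lists together. The shares of all probes at that threshold were 3.05%, 4.58% and 6.29%, while the counts over the lists were not turned into shares. Csnk1d, of the cytoplasmic list, stood at -0.18 ± 0.09 log2 at 20 mg/kg/day (SE; limma adjusted p = 0.929). Ror1, a receptor for Wnt5a, stood at 0.37 ± 0.16 log2 at 20 mg/kg/day (SE; limma adjusted p = 0.929), Gsk3a, a kinase that marks beta-catenin for destruction, at -0.24 ± 0.10 at 60 (adjusted p = 0.782) and Prickle2, of planar polarity, at -0.21 ± 0.09 at 60 (adjusted p = 0.782). The targets among them were Edn1, the endothelin precursor, at -0.84 ± 0.33 log2 at 20 mg/kg/day (SE; limma adjusted p = 0.929), and Birc5, an inhibitor of cell death in dividing cells, at 0.38 ± 0.16 at 60 (adjusted p = 0.782). The co-repressor Ctbp2 stood at 0.28 ± 0.13, 0.39 ± 0.12 and 0.39 ± 0.12 at the 3 rising doses and Tle4, the Groucho co-repressor that binds Lef and Tcf factors, at -0.56 ± 0.25, -0.70 ± 0.24 and -0.44 ± 0.23, with limma adjusted p of 0.782 to 1.00. The cyclin Ccnd1, a beta-catenin target in many cells, stood at 0.32 ± 0.16, 0.31 ± 0.15 and 0.23 ± 0.15. With the luteal score (0.0129% of all probes) 0 genes of these 5 lists were called. With the granulosa score (8.69% of all probes) 3 of the 14 extracellular and receptor genes rose, the inhibitors Sostdc1 and Apcdd1 and the proteoglycan Gpc3, and 1 of the 23 cytoplasmic genes, Cxxc4, which binds Dishevelled. Hdac1 fell among the 17 nuclear genes and the small GTPases Rhoa and Rac1 among the 14 of planar polarity, while Apcdd1 and Fgf9 rose among the 19 targets. With the stroma score (6.15% of all probes) Ryk, a Wnt receptor, fell among the 14, and of the 23 cytoplasmic genes 1 rose and 2 fell; the other 3 lists had 0 calls. With slide as a block 0 genes of the 5 lists were called with any of the scores.

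Probes of the same gene moved together to different degrees. Of the 10 members with several probes, 7 had a second tested probe. The pairs of Wnt11, Sfrp5, Wnt9b and Lef1 had correlations over the arrays of 0.968, 0.817, 0.789 and 0.700, while those of Tcf7l1, Fzd6 and Lrp6 stood at 0.472, 0.294 and 0.268; the second Fzd6 probe was at 0.15 at 20 mg/kg/day where the brightest was at -0.11. These are descriptions over 20 arrays that share dose, slide and tissue makeup.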

How the data were processed

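RNA of 20 ovaries was hybridised to 1-colour Agilent arrays; per the labels, 100 ng was labelled with Cy3 and replicate 4 at 0.06 mg/kg/day was removed as an outlier (not analysed here). Per the file headers, the deposited intensity is the background-corrected signal of Feature Extraction 11.5.1.1. The authors' deposited log2 values, whose centring is unknown, served as an alternative; their column medians ran from -0.072 to 0.0822 and they correlated with the scanner values at 0.946 to 0.991.

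Values are log2 intensity minus the array's 75th percentile over non-control spots, spots of a probe averaged; 23258 probes well above background on at least 4 arrays were kept, with the brightest per gene printed. limma 3.58.1 in R 4.3.3 fitted the 4 dose means with a shared spread. Score slopes had dose as covariate. Benjamini-Hochberg adjustment ran over all probes; code was tested on simulated data. The number of arrays limits the precision; the median residual SD was 0.275 log2.

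Probes were named through transcript accessions in a GRCr8 table (Akr1c18 is Akr1c3 there). The array design names build rn4. Named were fixed genes, the 8 members of smallest p per dose, up to 6 called per slope and direction, and the 6 of largest residual SD. Others named were picked after their values were seen. Members and lists were chosen with earlier results of these data known. Alternatives were quantile normalization, normexp (on the median signal, since the planned mean signal was not in the files; offset 50), the probe filter, slide, spike-in set or replicate number as a block, robust fitting, probe means, the deposited log2 values and arrays left out. Figures were drawn with matplotlib 3.10.9. Replicate numbers did not pair arrays: the 27 pairs with the same number correlated at -0.310 to 0.346, with 8 over 0.1.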

Additional observations from a re-analysis of the deposited data

Results flagged for a closer look

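Among 116 groups of values checked (29 named members at 4 doses), 8 held 1 array far from the rest of its dose, by a test that chance alone passes in about 1 of 20. Control replicate 5 was the lowest control for Wnt10b, at -6.20 against -2.39 to -1.20, and the highest for Wnt6, at -1.31 against -3.34 to -3.04. Replicate 2 at 0.06 mg/kg/day was the highest of its dose for Wnt5a, at -1.99 against -2.74 to -2.66. These are the 2 arrays with Akr1c18 below 0.

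Replicate 5 at 0.06 mg/kg/day was the highest of its dose for Wnt7a, at -4.01 against -5.26 to -5.07. At 60 mg/kg/day replicate 6 was the highest for Wnt7a (-3.91 against -5.45 to -5.15), Wnt1 (-2.78 against -3.95 to -3.62) and Sfrp5 (-4.11 against -4.59 to -4.48). Each of these arrays is the only one of its dose on slide 3, where Wnt7a and Sfrp5 lay above all arrays of the other slides and Wnt1 above all of them but control replicate 1. Replicate 4 at 20 mg/kg/day was the lowest of its dose for Lrp5, at 0.11 against 0.52 to 0.66.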

How the results depend on the processing

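The count of members called was 0 for each dose comparison, the trend and the joint test under every alternative run (280 of 280 values, leave-one-out included). Of 834 alternative values for the 24 dose differences printed by rank, 831 kept their sign and 3 turned, all under normexp: Lgr5 to 0.04 at 0.06 and 0.01 at 60 mg/kg/day, and Dvl3 to 0.07 at 60; the cause was not tested. Of 180 values for the 5 called slopes, 140 stayed past the threshold and 40 did not. The counts with the scores that follow are of members only. Among these alternatives the share of all probes called was counted for slide as a block alone. A change in the other counts thus cannot be told apart from a change over the whole array. With the luteal score normexp called 2 members in place of 0. With the granulosa score (2 members called) the count was 0 without the 2 arrays of farthest score, 4 with no filter on dim probes, 1 with slide as a block, 1 without the arrays with low Akr1c18, 0 without those with low Cyp17a1 and 0 without those with high oviduct markers; leaving out single arrays gave 0 to 3. With the stroma score (3 called) it was 0 with slide as a block, 6, 0 and 1 without the same 3 sets of arrays, and 1 to 6 without single arrays. Slide as a block without the arrays with low Akr1c18 gave 0 with the granulosa score, and without those with low Cyp17a1 0 with both; these combined settings were chosen after seeing the data. With replicate number as a block, which paired 1 of 20 arrays best with its own number, 5 members were called with the granulosa score, 0 with the stroma score and 0 in the dose comparisons. The planned fit of score, slide and dose together is the slide block itself. Normexp also left sizes more than 1.5 times smaller for Wnt11 (-0.30) and Wnt10a (0.37) at 0.06, Fzd3 at 0.06 (-0.26) and 60 (-0.37), Ctnnb1 at 20 (-0.13) and Wnt1 at 60 mg/kg/day (-0.35). Without control replicate 1 the differences of Fzd3 at 0.06, Ctnnb1 at 20 and Porcn at 20 were -0.13, -0.12 and 0.12. Wnt11 at 0.06 was -0.28 without replicate 1 of that dose, Dvl1 at 20 was 0.07 without replicate 3 and Dvl3 at 60 was -0.24 without replicate 4. Dim probes limit Wnt10a, Rspo2, Fzd4, Fzd9, Lgr5, Rnf43, Sfrp2 and Dvl3, which were not well above background on every array.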
